A study of Mus musculus with 9 samples.

Results

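The nuclear subunits of respiratory complex I were followed by name in RNA from brain myeloid cells, with 35 subunit genes found among the 36528 gene rows of each library. The genes were listed by name as structural subunits of the complex, without a threshold on any measured value. The list was chosen with earlier results of these data known. The material was sorted Cd11b+ cells of the brain, and the mice were 11 to 12 months of age. The Tau-P301L group had 5 libraries (2 from females, 3 from males) from mice transgenic for tau carrying P301L, a mutation of inherited frontotemporal dementia. The wild-type group had 4 libraries (2 from females, 2 from males) from littermates without the transgene. The sources used here do not give the promoter that drives the transgene, the strain, or whether each library came from 1 mouse, so p-values measure the spread between these libraries only. Libraries are numbered within each group, and libraries 1 and 2 of both groups are the females.

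Complex I is the entry point of the mitochondrial respiratory chain. It takes electrons from NADH, passes them over a flavin and a row of iron-sulfur clusters to ubiquinone, and uses the energy to pump protons across the inner mitochondrial membrane. Its subunits come from both genomes: the proton-pumping core of the membrane arm is encoded in mitochondrial DNA, while the subunits described here are encoded in the nucleus, translated in the cytosol and imported. The nuclear subunits fall into an NADH-oxidising tip (the N module), a quinone-reducing module (the Q module) and the shell of the membrane arm. In myeloid cells the balance between respiration and glycolysis is known to shift with activation, and complex I is also a source of reactive oxygen.

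The genes lie on 15 chromosomes, 2 of them (Ndufa1 and Ndufb11) on the X. RefSeq windows of 300 bases around an annotated start (250 before, 50 after, build GRCm38.p6) were matched for 32 of the 35 genes, all but Ndufa2, Ndufb9 and Ndufs1. They were searched on both strands for 4 motifs of factors known to act on respiratory genes. The NRF1 motif was present for 7 of 32 subunit genes (21.9%), against 7.17% of 17492 protein-coding genes and 5.19% of all 27025 genes with a window. The ETS core CCGGAA, bound by GABPA and many other factors, was present for 10 (31.25%, against 20.9% and 16.7%). The YY1 motif AAGATGGC was present for 7 (21.9%, against 3.57% and 3.19%), each time beginning 23 to 39 bases after the start. The motif TCAAGGTCA of estrogen-related receptors was in none of the 32 windows and in 0.466% of all genes. Ndufa9, Ndufs6 and Ndufs7 held matches to 2 of the motifs. A match describes letters in a window and is not a measured binding site. The 250 bases before the start are shown for 3 genes described below, as examples of an ETS match (Ndufv1 and Ndufa10) and an NRF1 match (Ndufs6), and were picked with their estimates known. For Ndufa10 the start of the window lies inside the gene, whose outer end is at 92473825. The last bases shown for Ndufa10 therefore overlap the gene. Genes with matches had estimates in both directions, as Ndufs3 with 3 ETS matches at 0.95 on the log2 scale, and no relation of matches to estimates was tested. The sequences are from RefSeq, read 5′ to 3′ on the minus strand, with motif matches in capitals (an ETS core in reverse appears as TTCCGG).
Ndufv1, chr19:4012756-4013005: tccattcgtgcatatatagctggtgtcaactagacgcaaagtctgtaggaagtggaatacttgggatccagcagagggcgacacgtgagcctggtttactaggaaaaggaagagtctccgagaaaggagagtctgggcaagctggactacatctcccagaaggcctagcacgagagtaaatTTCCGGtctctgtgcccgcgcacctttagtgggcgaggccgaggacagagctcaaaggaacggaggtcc
Ndufa10, chr1:92473759-92474008: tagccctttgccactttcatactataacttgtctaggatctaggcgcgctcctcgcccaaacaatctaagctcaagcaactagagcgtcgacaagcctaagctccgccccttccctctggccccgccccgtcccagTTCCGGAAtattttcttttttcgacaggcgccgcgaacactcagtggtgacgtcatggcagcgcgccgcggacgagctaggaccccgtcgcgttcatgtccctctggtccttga
Ndufs6, chr13:73328483-73328732: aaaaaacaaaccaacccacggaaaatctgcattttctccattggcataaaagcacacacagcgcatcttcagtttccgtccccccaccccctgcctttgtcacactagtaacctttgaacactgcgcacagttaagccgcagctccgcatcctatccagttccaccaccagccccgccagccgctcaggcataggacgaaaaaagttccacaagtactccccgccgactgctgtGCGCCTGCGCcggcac

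The libraries held 1.49 to 3.79 M reads in genes, and mitochondrially encoded genes took 9.30 to 23.1% of them. Itgam, which encodes Cd11b, stood at 2406 to 3225 CPM (read counts scaled to a common library size after TMM normalisation), and all 10 markers of microglia passed the filter on low counts, with summed levels of 10900 to 14828 CPM in wild-type and 8651 to 15362 CPM in Tau-P301L libraries. The estimates of 9 of these 10 markers were lower in Tau-P301L (median log2 fold change -0.26), 2 of them at an unadjusted p under 0.05, and so pointed the same way as most complex I genes described below. Markers of neurons summed to 238.0 to 408.2 and 172.2 to 327.5 CPM, with lower estimates in Tau-P301L for 8 of 9 tested genes (median log2 fold change -0.63). Astrocyte markers summed to 323.2 to 422.0 and 318.3 to 686.4 CPM, oligodendrocyte markers to 520.7 to 728.6 and 336.7 to 1467 CPM, and neutrophil markers to 0.341 to 68.9 and 1.07 to 232.2 CPM. Estimates were higher in Tau-P301L for 6 of 9 tested astrocyte markers (median log2 fold change 0.29). They were higher for 4 and lower for 4 oligodendrocyte markers, and higher for 2 and lower for 1 of neutrophils. Markers of B cells, T and NK cells and ependymal cells summed to at most 2.76 CPM in any library, and Cd3e, Cd3g, Nkg7, the endothelial Cldn5 and the mural Vtn had no reads. The other marker lists were low: border macrophages at 32.9 to 114.9 and 51.8 to 97.8 CPM, monocytes at 27.9 to 80.8 and 41.9 to 78.5 CPM, oligodendrocyte precursors at 8.42 to 27.3 and 20.7 to 42.6 CPM, endothelial cells at 19.4 to 36.3 and 13.7 to 39.8 CPM, and mural cells at 3.07 to 8.80 and 4.48 to 20.9 CPM. Of these, higher and lower estimates numbered 2 and 0 for oligodendrocyte precursors (median 0.68), 2 and 3 for border macrophages and 1 and 0 for mural cells. They numbered 1 and 2 for monocytes and for endothelial cells. At an edgeR unadjusted p under 0.05, the lists of monocytes and oligodendrocyte precursors, which share Vcan, each held 1 higher gene. Those of neurons and oligodendrocytes each held 1 lower gene. No marker gene passed the genotype test, and the part of these cells in the complex I values was not tested. Genes reaching 10 reads numbered 9928 and 9063 in Tau-P301L libraries 3 and 5, and 10589 to 12101 in the other libraries.

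Complex I transcripts rested on few reads. The 35 genes together had 4232 reads over the 9 libraries, or 0.0173% of all reads, and the median gene had 80 reads in total. Of the 315 values (35 genes in 9 libraries), 177 were under 10 reads and 32 were 0. Only 19 of the genes had reads in every library. The most read gene was Ndufs1, the large iron-sulfur subunit of the tip, with 25 to 143 reads per library, followed by Ndufs4, a tip subunit whose loss in mice gives a Leigh-like encephalopathy, with 29 to 74 reads. At these depths 3 reads correspond to 0.831 to 2.09 CPM, which is the size of many of the levels below.

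**Figure D1:**
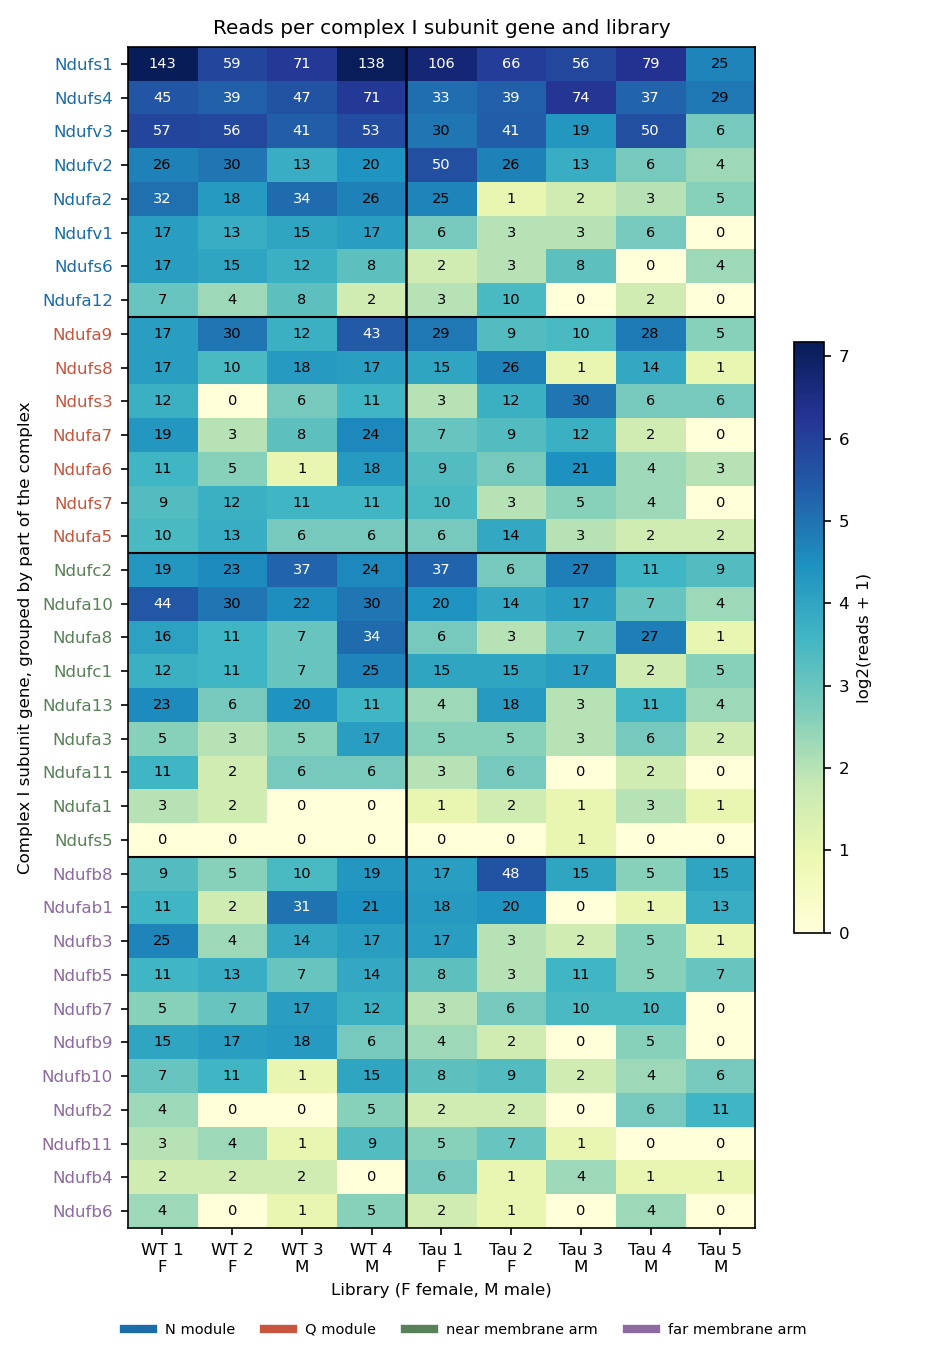
Reads counted for each of the 35 subunit genes (rows, grouped by part of the complex) in each library (columns, 4 wild-type and 5 Tau-P301L). Cells show the read count, coloured by log2(reads + 1). Ndufs1 has the most reads in all but Tau-P301L libraries 3 and 5, where Ndufs4 has more, and Ndufs5 has 1 read in all.

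Per length, the subunit genes were similar to other nuclear respiratory genes and, by the median, far below the mitochondrially encoded ones. Levels between genes are compared as the authors' size-factor-adjusted RPKM, averaged over 9 libraries. The median subunit gene stood at 0.997 RPKM, and 17 of 35 exceeded 1 RPKM. The highest were Ndufc2 (2.84 RPKM) and Ndufc1 (2.55 RPKM), small subunits of the membrane arm, and Ndufs4 (2.52 RPKM). Their group SDs ran from 0.44 to 1.59 RPKM, so the order among the 3 is not resolved. The lowest were Ndufs5 (0.0244 RPKM), a subunit of the intermembrane-space side, Ndufa11 (0.120 RPKM) and Ndufa1 (0.277 RPKM), both of the membrane arm. Of 16775 protein-coding genes with any read, the median was 0.497 RPKM, and 27 of the 35 subunit genes lay above it. Nuclear genes of complexes II to V had a median of 1.496 RPKM (41 genes), complex I assembly factors 0.672 RPKM (18 genes) and microglial markers 57.3 RPKM (10 genes). The 7 mitochondrially encoded complex I genes had a median of 5031 RPKM, with a range of 0.640 to 6974 RPKM. The lowest, mt-Nd4l, lay below the median subunit gene, and mt-Nd3 stood at 19.6 RPKM. The strand setting of the counts is not given, and how reads were assigned among the mitochondrially encoded genes was not tested. Their single values may therefore not rank the transcripts.

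**Figure D2:**
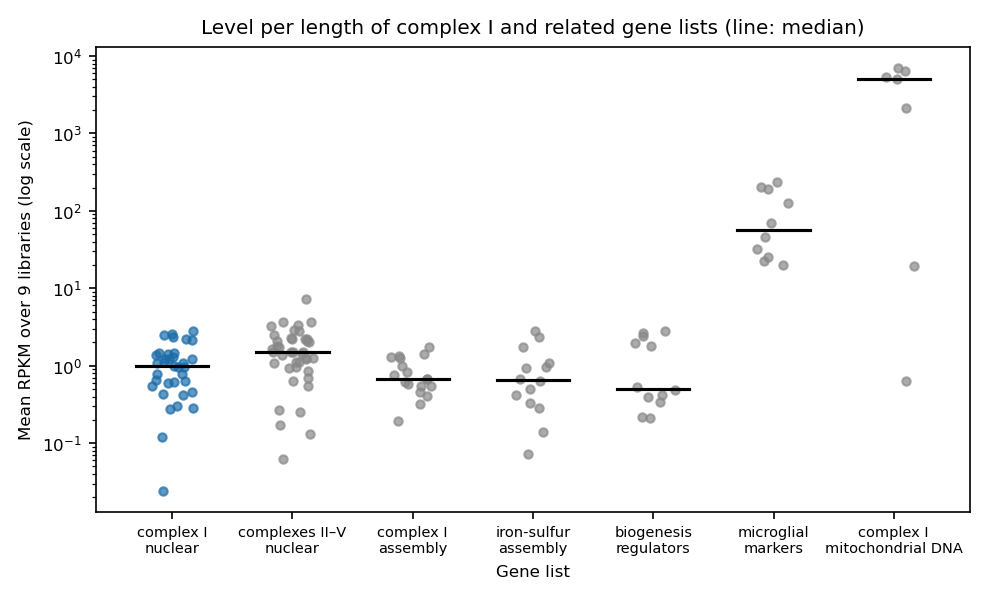
Mean RPKM over 9 libraries (log axis) of each gene in 7 lists, with the median as a line. The nuclear complex I genes (blue, median 0.997 RPKM) overlap those of complexes II to V (1.496 RPKM) and lie below the microglial markers (57.3 RPKM).

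Copies of genes elsewhere in the genome can bear on counts where only uniquely aligned reads are kept, as here. The longest protein-coding GENCODE M21 transcript of each gene was searched. In it, 13 of the 35 genes shared at least 1 exact stretch of 50 bases with an annotated pseudogene. The share of such stretches was largest for Ndufb4 (37.0%), Ndufs3 (35.8%), Ndufs5 (31.1%) and Ndufa12 (26.2%), followed by Ndufab1 (12.3%). Among RefSeq pseudogenes named after members, Ndufs6b had 29 reads in all, Ndufs5-ps 21, Ndufa11b 12 and Ndufab1-ps 1. Ndufs5 itself had 1 read in total, in Tau-P301L library 3, so more reads were assigned to its pseudogene than to the gene. Values of the genes with shared stretches are to be read with care, and the part of the stretches in them was not tested. How much of the low level of Ndufs5 comes from reads that align in more than one place was not tested.

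The genotype comparison asks how these genes differ between myeloid cells of mice with mutant tau and of their littermates. No complex I gene passed the test. The filter on low counts kept 24 of the 35 genes, and 0 of the 24 passed an adjusted p of 0.05 in edgeR's quasi-likelihood test, where 0.00816% of 12250 genes did (1 gene). DESeq2 called 0 of the 19 members to which it gave an adjusted p, where it called 0.23% of the 11755 genes with one (27 genes, or 0.22% of the 12250 tested). It gave none to the other 5, Ndufb9, Ndufs6, Ndufs7, Ndufb7 and Ndufb10, which it could therefore not call. Adjusted p-values of the members ran from 0.748 to 0.997. Most estimates pointed lower in Tau-P301L: 20 of 24 were below 0, against 50.1% of all genes tested, and the median log2 fold change was -0.42, against 0.00 for all genes. The filter favours genes that are high in at least one group, so the same was read without it. Of all 35 genes, 26 had lower and 9 higher estimates, with a median of -0.37, against 0.03 over 24752 genes. Because the members were chosen with earlier results of these data known, these contrasts with all genes are not independent support for a difference. The median standard error was 0.76 for the members and 0.46 for all genes. In bulk RNA, fewer cells of a type and less RNA per cell cannot be told apart.

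The direction was shared with other nuclear respiratory genes. Those of complexes II to V had lower estimates for 23 of 33 tested genes and a median of -0.42, and a difference between the lists was not tested. Gene length moved with the estimates as well. Of the tested members, 21 belong to the shortest of 4 equal length bins of all tested genes and 3 to the next. In the shortest bin 55.9% of genes had a lower estimate (median -0.08), against 43.6% in the longest (median 0.07). The part of length in the members' values was not tested.

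**Figure D3:**
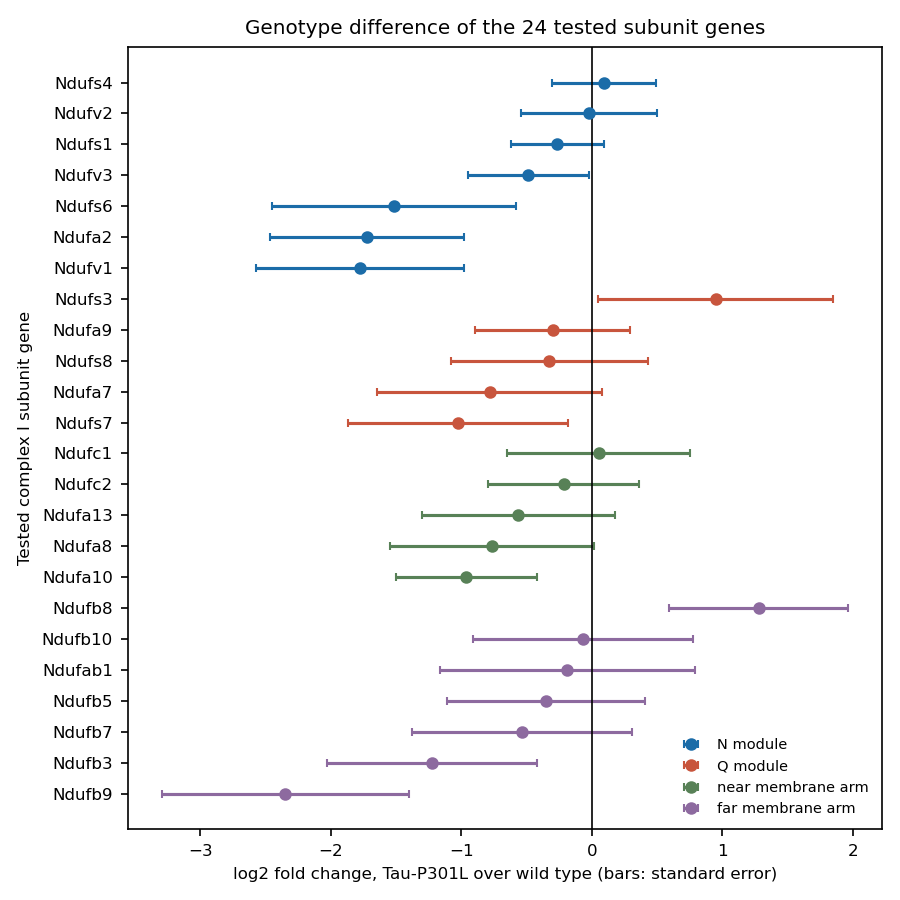
log2 fold change (Tau-P301L over wild type) with its standard error for the 24 tested subunit genes, coloured by part of the complex. 20 points lie below 0 and 4 above, and none passed an adjusted p of 0.05.

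In the N module, which binds NADH and holds the flavin, 6 of 7 tested genes had lower estimates (median -0.49). Ndufv1 encodes the subunit that binds NADH and flavin mononucleotide (chromosome 19, 4007499 to 4012755). It stood at 5.21, 4.43, 5.74 and 4.71 CPM in wild-type libraries 1 to 4, from 13 to 17 reads each. In Tau-P301L libraries 1 to 5 it stood at 1.91, 1.07, 1.35, 2.57 and 0 CPM, from 0 to 6 reads each. Every Tau-P301L library lay below every wild-type library, and the wild-type libraries were close together. The means were 5.02 ± 0.576 CPM (SD, n = 4) and 1.38 ± 0.96 CPM (SD, n = 5). On the log2 scale the difference was -1.77 (SE 0.80, edgeR adjusted p = 0.776). Its variation within groups was 0.741 times that of counting error alone, the smallest among the tested members.

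Ndufa2, an accessory subunit of the tip with a thioredoxin-like fold (chromosome 18), stood at 9.81, 6.14, 13.01 and 7.20 CPM in the wild-type libraries. In the Tau-P301L libraries it stood at 7.94, 0.357, 0.897, 1.28 and 3.49 CPM. Library 1, a female, lay within the wild-type range with 25 reads, while the other Tau-P301L libraries had 1 to 5 reads, so the groups overlapped. On the log2 scale the estimate for Ndufa2 was -1.72 (SE 0.74, edgeR adjusted p = 0.776). It ranged from -2.94 without Tau-P301L library 1 to -1.38 without wild-type library 3. Ndufs6, a zinc-binding tip subunit added late in assembly, had an estimate of -1.51 on the log2 scale (SE 0.93, edgeR adjusted p = 0.793), from 8 to 17 reads in wild-type and 0 to 8 in Tau-P301L libraries.

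Of the other tip subunits, Ndufv3, an accessory subunit with 353 reads in all, had an estimate of -0.49 on the log2 scale (SE 0.46, edgeR adjusted p = 0.865). Ndufa12, with 36 reads, was not tested. Ndufs1 stood at 43.8, 20.1, 27.2 and 38.2 CPM in wild-type and 33.7, 23.6, 25.1, 33.8 and 17.5 CPM in Tau-P301L libraries. The ranges overlapped widely, and the estimate was -0.27 on the log2 scale (SE 0.36, edgeR adjusted p = 0.916). Ndufv2, an iron-sulfur subunit beside Ndufv1 in the tip, stood at 7.97, 10.2, 4.97 and 5.54 CPM against 15.9, 9.28, 5.83, 2.57 and 2.79 CPM. Its log2 fold change was -0.02 (SE 0.52), and its highest and lowest values were both in Tau-P301L libraries. Ndufs4 stood at 16.2 ± 3.13 CPM (SD, n = 4) in wild-type and 18.7 ± 8.81 CPM (SD, n = 5) in Tau-P301L libraries (log2 fold change 0.09, SE 0.40). The catalytic partners Ndufv1, Ndufv2 and Ndufs1 gave unequal estimates, and differences between genes were not tested.

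**Figure D4:**
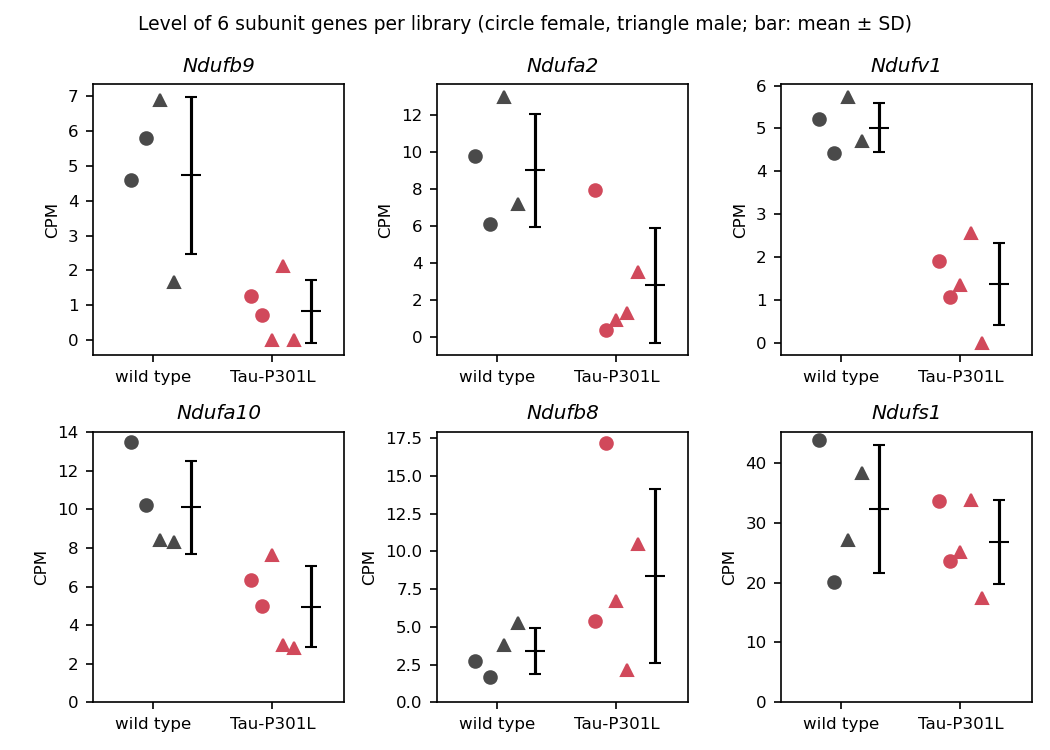
CPM of 6 subunit genes in each library (circles female, triangles male) with the group mean ± SD. Every Tau-P301L library lies below every wild-type library for Ndufv1 and Ndufa10, and the groups overlap for the other 4 genes.

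In the Q module, where electrons reach ubiquinone, 4 of 5 tested genes had lower estimates (median -0.33). Ndufs7, which holds the last iron-sulfur cluster before ubiquinone, stood at 2.76, 4.09, 4.21 and 3.05 CPM in wild-type and 3.18, 1.07, 2.24, 1.71 and 0 CPM in Tau-P301L libraries. All but one of the Tau-P301L libraries lay below the wild-type range, on at most 12 reads in any library (log2 fold change -1.02, SE 0.84, adjusted p = 0.849). Ndufs8, another iron-sulfur subunit, stood at 5.21, 3.41, 6.89 and 4.71 CPM against 4.76, 9.28, 0.448, 5.99 and 0.698 CPM, with Tau-P301L libraries 3 and 5 at 1 read each (-0.33, SE 0.75). Without those 2 libraries its log2 fold change was 0.44. Ndufs3, a subunit of the early assembly core, went the other way, at 0.95 on the log2 scale (SE 0.90, edgeR adjusted p = 0.865). That value was 0.39 without Tau-P301L library 3 and 1.92 without wild-type library 1. It stood at 3.68, 0, 2.30 and 3.05 CPM in wild-type and 0.953, 4.28, 13.5, 2.57 and 4.19 CPM in Tau-P301L libraries, and the groups overlapped.

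In the near part of the membrane arm, 4 of 5 tested genes had lower estimates (median -0.56). Ndufa10, an accessory subunit related to nucleoside kinases (chromosome 1, 92439486 to 92473825), was named because its groups did not overlap, which was seen in the values. It stood at 13.5, 10.2, 8.42 and 8.31 CPM in wild-type and 6.35, 5.00, 7.62, 2.99 and 2.79 CPM in Tau-P301L libraries, from 4 to 44 reads. The estimate was -0.96 on the log2 scale (SE 0.54, edgeR adjusted p = 0.789). Ndufc2 stood at 8.62 ± 3.78 and 7.40 ± 4.4 CPM (SD, n = 4 and 5; log2 fold change -0.22, SE 0.58) and Ndufc1 at 4.26 ± 1.84 and 4.42 ± 2.49 CPM (0.05, SE 0.70). Neither differed beyond the spread between libraries.

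In the far part of the membrane arm, 6 of 7 tested genes had lower estimates (median -0.35), and this part held both extremes. Ndufb9, a small subunit of the LYR family that docks the acyl carrier protein Ndufab1 (chromosome 15, 58933801 to 58939516), stood at 4.60, 5.80, 6.89 and 1.66 CPM in wild-type libraries, from 6 to 18 reads. In Tau-P301L libraries it stood at 1.27, 0.714, 0, 2.14 and 0 CPM, from 0 to 5 reads. Wild-type library 4 lay below Tau-P301L library 4, so the groups overlapped by 1 library. The log2 fold change of -2.35 (SE 0.95, edgeR adjusted p = 0.748) rests on 11 reads in Tau-P301L and 56 in wild-type libraries. It ranged from -3.21 without Tau-P301L library 4 to -1.84 without wild-type library 3. Ndufb8, a membrane-arm subunit used as an indicator of assembled complex I on blots, had the highest estimate of all, 1.28 (SE 0.68, edgeR adjusted p = 0.789). It stood at 2.76, 1.70, 3.83 and 5.26 CPM in wild-type and 5.40, 17.1, 6.73, 2.14 and 10.5 CPM in Tau-P301L libraries, where library 4 lay within the wild-type range and the other 4 above it. The estimate was 0.76 without Tau-P301L library 2.

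Taking unadjusted p under 0.05, 3 of 24 members (12.5%) were lower in Tau-P301L, namely Ndufb9, Ndufa2 and Ndufv1, where 2.78% of all tested genes were. None was higher, where 3.57% of all genes were. All Tau-P301L libraries lay below all wild-type libraries for 2 of 24 members (8.33%), Ndufv1 and Ndufa10, against 1.18% of all tested genes, and above for 0, against 1.31%. These shares too come from members chosen with earlier results known, and no test was made on them. The count of 3 fell to 2 without Tau-P301L libraries 3 and 5. It fell to 1 without wild-type library 1 or without wild-type library 2, and to 0 without wild-type library 3 or without Tau-P301L library 2. It was 2 without wild-type library 4 or without Tau-P301L library 1, 4 or 5, and 4 without Tau-P301L library 3. The share of all genes in those reduced runs is not given here, so these counts have no background beside them. With 1 library left out, the median log2 fold change ran from -0.65 (without Tau-P301L library 4) to -0.38 (without Tau-P301L library 1).

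The 11 genes that did not pass the filter had 1 to 78 reads in total. They were Ndufs5 (1 read), Ndufa1 (13), Ndufb6 (17), Ndufb4 (19), Ndufb2 (30), Ndufb11 (30), Ndufa11 (36), Ndufa12 (36), Ndufa3 (51), Ndufa5 (62) and Ndufa6 (78). Ndufb2, Ndufb4, Ndufb6 and Ndufb11 belong to the far membrane arm, where 4 of 11 genes were not tested. Ndufa5 and Ndufa6 are accessory subunits of the Q module, and Ndufa12 sits at the junction of the tip. The main fit did not test these 11 genes for genotype. In the fit without the filter 0 of the 35 members were called, where 26 of 24752 genes were. At this depth a lack of calls does not show that the groups were alike.

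Summed over the 35 genes, levels were 204.7, 156.8, 194.7 and 203.5 CPM in wild-type libraries 1 to 4 and 163.6, 156.7, 169.5, 153.1 and 118.7 CPM in Tau-P301L libraries 1 to 5. The means were 190.0 ± 22.5 CPM (SD, n = 4) and 152.3 ± 19.8 CPM (SD, n = 5). Wild-type library 2 lay within the Tau-P301L range, and the other wild-type libraries lay above it. The lowest sum belonged to Tau-P301L library 5, the shallowest, which had 170 complex I reads in all and 0 reads for 10 of the 35 genes. Without Tau-P301L libraries 3 and 5 the Tau-P301L mean was 157.8 ± 5.34 CPM. Summed levels of the N module were 79.8 to 105.4 CPM in wild-type and 51.0 to 81.0 CPM in Tau-P301L libraries. The Q module ranged from 23.7 to 36.0 and from 11.9 to 36.8 CPM. The near membrane arm ranged from 30.004 to 40.8 and from 18.2 to 34.1 CPM, and the far arm from 22.2 to 39.0 and from 19.7 to 37.7 CPM. The most read gene, Ndufs1, weighs heavily on the sum of the N module. No test was made on sums over the members.

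**Figure D5:**
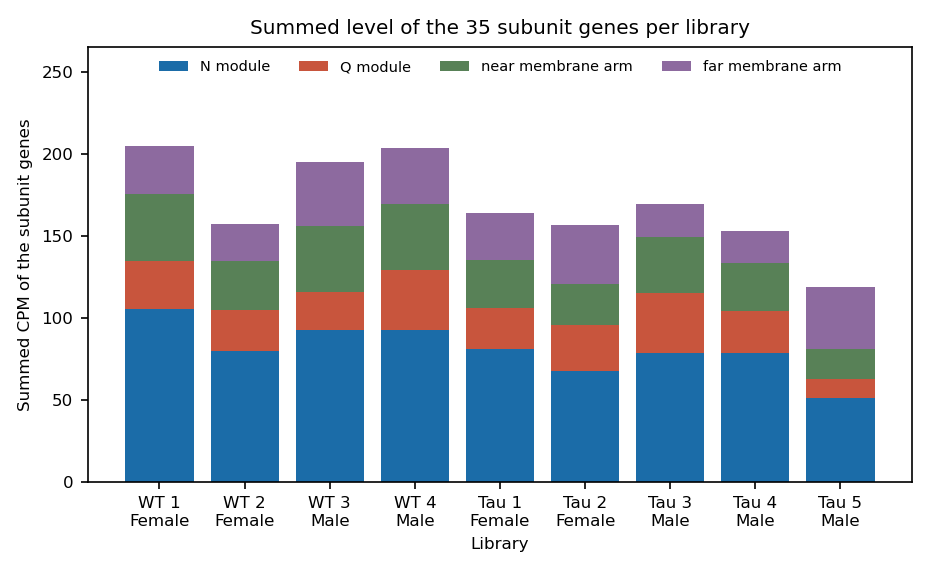
Summed CPM of the 35 subunit genes per library, stacked by part of the complex. The wild-type libraries sit between 156.8 and 204.7 CPM and the Tau-P301L libraries between 118.7 and 169.5 CPM.

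By sex, members pointed lower in both. In females alone 15 of 21 tested members had lower estimates (median -0.26), and in males alone 18 of 23 did (median -0.42). The medians over all tested genes were -0.004 in females and 0.03 in males. The summed level was 180.8 ± 33.9 CPM in wild-type and 160.2 ± 4.84 CPM in Tau-P301L females (SD, n = 2 each). In males it was 199.1 ± 6.22 CPM (SD, n = 2) and 147.1 ± 25.9 CPM (SD, n = 3). The female sums overlapped, with wild-type library 2 at 156.8 CPM and Tau-P301L library 1 at 163.6 CPM, while the male sums did not. The interaction of genotype and sex was tested for 26 members. None passed an adjusted p of 0.05 in edgeR, where 0% of 13302 genes did, and none had an unadjusted p under 0.05, where 3.95% of all genes did (526 genes). DESeq2 called 0 of the 26 members for the interaction, where it called 4 of the 13299 genes given an adjusted p. The smallest unadjusted p among members was that of Ndufab1, the mitochondrial acyl carrier protein, at 0.082 (edgeR adjusted p = 0.99999). It had 0 and 1 read in Tau-P301L males 3 and 4 and 13 in male 5, against 18 and 20 in the Tau-P301L females.

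Members differed between libraries of one group by more than counting error. The chi-square of the reads within groups, per degree of freedom, had a median of 4.42 over the 24 tested members and exceeded 2 for 20 of them. Over the 7939 tested genes with totals in the same range, 63 to 743 reads, the median was 6.13. Those genes were matched on the range alone and not on read number within it. The medians therefore do not show that members were steadier than other genes. The largest member values were those of Ndufab1 (9.66), Ndufa8 (9.51), a subunit of the intermembrane-space side with 34 reads in wild-type library 4 and 27 in Tau-P301L library 4, and Ndufs3 (8.23).

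The other genes of the pathway gave no calls either. Of the 14 tested assembly factors, 9 had lower and 5 higher estimates (median -0.06), and 0 passed the test. The smallest p values were those of Ndufaf4, an early assembly factor (16.9 ± 5.0 CPM in wild-type and 33.6 ± 22.7 CPM in Tau-P301L; log2 fold change 0.99, SE 0.46, edgeR adjusted p = 0.776), and Foxred1 (-1.11, SE 0.64). Of 10 tested iron-sulfur cluster assembly genes 9 had lower estimates (median -0.21), led by Iscu, the scaffold on which clusters are built (-0.84, SE 0.56), with Nfu1 at 0.87 (SE 0.77). Regulators of mitochondrial biogenesis were split, 6 lower and 6 higher (median 0.00). Gabpa, the ETS factor named above, had a log2 fold change of 0.67 (SE 0.31, edgeR adjusted p = 0.776) and Ppargc1a, the coactivator PGC-1 alpha, one of 1.16 (SE 0.70). The spread of Ppargc1a was wide in Tau-P301L, at 24.1 ± 30.8 CPM (SD, n = 5) against 7.42 ± 2.02 CPM (SD, n = 4), and without libraries 3 and 5 its log2 fold change was -0.25.

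The mitochondrially encoded subunits showed no common direction, with 4 of 6 tested estimates higher and 2 lower (median 0.23) and none past the test. Their summed level was 56370 to 168960 CPM in wild-type and 65667 to 239890 CPM in Tau-P301L libraries. The smallest p values were those of mt-Nd3 (0.63, SE 0.47) and mt-Nd6 (-0.45, SE 0.41). In females alone the estimates of mt-Nd3 and mt-Nd6 were -0.29 and -1.30, and in males alone 1.43 and 0.29. Among the other complexes the leading genes were Sdha, the flavoprotein of complex II (0.54, SE 0.31), and Sdhd (-0.47, SE 0.54), Uqcrc1 (-0.74, SE 0.59) and Cyc1, cytochrome c1 (-0.62, SE 0.64), of complex III, Cox5a (-1.42, SE 0.84) and Cox7b (0.96, SE 0.76) of complex IV, and Atp5a1 (-0.56, SE 0.38) and Atp5d (-0.60, SE 0.62) of the ATP synthase. The edgeR adjusted p-values of these 8 genes ran from 0.789 to 0.898.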

How the data were processed

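The authors deposited 1 table per library with whole-number counts of uniquely aligned reads per gene model, by Entrez number, and size-factor-adjusted RPKM values, per the file headers. Reads were aligned with GSNAP to GRCm38, per the submitters' processing notes, and the sources used here do not give versions, annotation, read filters or the strand setting. Entrez numbers were paired with symbols through RefSeq's gene table for GRCm38.p6 (31049 of 36528 rows matched), which also resolved older symbols in the lists. Genotype was tested on the counts with edgeR 4.0.16 (R 4.3.3), using TMM, the default low-count filter, robust dispersions, a sex term (6 residual degrees of freedom) and Benjamini-Hochberg adjustment at 0.05. The interaction added a product term. Standard errors were derived from the F statistic. The biological coefficient of variation was 0.464. Alternatives were DESeq2 1.42.0, limma-voom 3.58.1 with sample weights, other scalings, filters and terms, and subsets of libraries. The steps were tested on simulated data. Depth was 1494727 to 3793606 reads per library.

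The members and gene lists were chosen with earlier results of these data known. Named were members with an unadjusted p under 0.05, the 2 of smallest p in each direction, the 6 catalytic core genes, the 3 highest and 3 lowest by RPKM, and in other lists the 2 of smallest p. Ndufa10, Ndufs6, Ndufab1 and Ndufa8 were named after their values were seen. One listed assembly factor, 1 B cell and 1 T cell marker had no matching row.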

Additional observations from a re-analysis of the deposited data

Results flagged for a closer look

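Of 28 sets of values checked (13 named members and the summed level, in each group), 1 had a library far from the others of its group by Dixon's criterion, and chance alone flags about 1 in 20. Ndufs3 stood at 13.45 CPM in Tau-P301L library 3, where the other Tau-P301L libraries ranged from 0.953 to 4.285 CPM.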

How the results depend on the processing

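Under every alternative run, 0 complex I members passed in the genotype or the interaction fits, where DESeq2 gave 5 of the 24 no adjusted p for genotype. The median log2 fold change of the members stayed below 0, from -0.65 to -0.38 when 1 library was left out. The number of all genes called for genotype was 27 with DESeq2, 26 without the low-count filter, 0 in females alone, males alone or without both Tau-P301L libraries 3 and 5, and 0 to 1 when 1 library was left out. For the interaction it was 4 with DESeq2, 22 without the filter and 0 to 4 when 1 library was left out. The members lower at an unadjusted p under 0.05 numbered 5 with limma-voom and 0 with the stricter filter (5 members tested). They numbered 1 in females alone, 1 in males alone and 0 to 4 when 1 library was left out. The share of all genes is given for the main fit only (2.78%), so the counts of the other runs have no background beside them. Of 555 checks of single genes, 517 kept their direction and 38 reversed it, and none was called. Ndufv2 reversed with DESeq2 (0.0046), limma-voom (0.0627), no sex term (0.0519), the mitochondrial share as a term (0.0146) and in females (0.47), Ndufc1 with limma-voom (-0.15), in males (-0.26) and without Tau-P301L libraries 3 and 5 (-0.42), and Ndufs4 with limma-voom (-0.0076), in females (-0.16) and without those libraries (-0.19). Ndufs8 reversed in females (0.69) and without those libraries (0.44), Ndufc2 in females (0.0352), Cyc1 in females (0.98) and without those libraries (0.0478), and Ppargc1a without them (-0.25). In females Sdhd (0.74), Foxred1 (0.37), mt-Nd3 (-0.29) and Atp5d (0.0217) reversed, and in males Cox7b (-0.0487) and mt-Nd6 (0.29). With 1 library left out, reversals occurred within the ranges of Ndufv2 (-0.28 to 0.14), Ndufc1 (-0.32 to 0.49), Ndufc2 (-0.81 to 0.10), Ndufs4 (-0.11 to 0.21), Ndufs8 (-0.85 to 0.0224) and mt-Nd6 (-0.90 to 0.0551). The cause was not tested. No paired analysis was made, because the labels link no wild-type library to a Tau-P301L library. Read depth limits these genes, with 177 of 315 values under 10 reads.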
